A study of Mus musculus with 11 samples.

Results

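A set of 10 genes of interleukin 6 signalling was followed in dendritic cells sorted from mouse spleen. They comprise 4 cytokines of the interleukin 6 family (Il6, Lif, Osm and Il11), 3 receptor chains for them (Il6ra, Il6st and Osmr), interleukin 10 with a chain of its receptor (Il10 and Il10ra), and the transcription factor Stat3. These 10 genes, of 22180 genes measured, were listed by name and chosen by their log2 values in exposed against naive arrays, since earlier results of that comparison were known when the list was made. That difference is therefore given as a description, with no p for a listed gene. The limits printed beside it are those of each gene alone. They are not adjusted for the number of genes or for the choice of these genes, and they serve as no test. How many of the 10 a fit over all genes called is stated beside the share of all genes and supports nothing. Each of the 10 genes had 1 probeset that names it alone, and 1 probeset a gene was used throughout.

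The exposed group was 5 arrays of dendritic cells from mice that had received transferred Eµ-Myc lymphoma cells, a B cell lymphoma driven by a Myc transgene under the immunoglobulin heavy chain enhancer, and whose spleens held tumour cells at an average of 10 to 36% of lymphocytes. The naive group was 6 arrays of the same cell population from mice without lymphoma. The labels give the strain of both groups as C57BL/6 and name no engineered allele for these 11 samples, although the protocol text shared by the study also names CD11c.Cre mice with and without floxed C/EBPβ alleles; age, sex, time after transfer and the number of mice behind an array are not given in the sources used here, so all errors measure the spread between arrays, which may be technical. Cells were sorted for CD11c and MHC class II to a purity over 95%.

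Interleukin 6 binds its own receptor chain, encoded by Il6ra, and the pair then engages gp130, the signalling chain encoded by Il6st. Leukaemia inhibitory factor (Lif), oncostatin M (Osm) and interleukin 11 (Il11) use gp130 as well, each with a partner chain such as the oncostatin M receptor Osmr. Kinases of the JAK family bound to these chains phosphorylate STAT3, which turns on target genes, among them the feedback inhibitor Socs3. Interleukin 10 is not a gp130 cytokine, but its receptor also signals through STAT3. In dendritic cells interleukin 6 is known as a cytokine released after microbial sensing, and interleukin 10 as one that restrains such responses.

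The promoter of Il6 is shown first because C/EBPβ, the factor the study is built on, was first described, in human cells, as a protein binding the interleukin 6 gene; Lif is shown as another cytokine of the family and Socs3 as the feedback gene whose transcript is described further on. Windows run from 250 bases before to 50 bases after the annotated start, 5′ to 3′ on the gene's strand, from RefSeq on GRCm38.p6. Capitals mark every match, on either strand, to the searched letters for NF-kB (GGANTTTCC), C/EBP (TTGCNNAA), STAT (TTCNNNGAA), AP-1 (TGANTCA) or CRE (TGACGTCA). The Il6 window is chr5:30012864-30013163 (plus strand), the Lif window chr11:4257318-4257617 (plus strand) and the Socs3 window chr11:117969317-117969616 (minus strand).
Il6: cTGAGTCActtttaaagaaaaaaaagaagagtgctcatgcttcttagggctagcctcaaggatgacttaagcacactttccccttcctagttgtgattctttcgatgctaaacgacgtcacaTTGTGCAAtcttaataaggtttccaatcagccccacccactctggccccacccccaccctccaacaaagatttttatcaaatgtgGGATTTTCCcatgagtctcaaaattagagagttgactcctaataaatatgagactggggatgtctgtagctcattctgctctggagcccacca
Lif: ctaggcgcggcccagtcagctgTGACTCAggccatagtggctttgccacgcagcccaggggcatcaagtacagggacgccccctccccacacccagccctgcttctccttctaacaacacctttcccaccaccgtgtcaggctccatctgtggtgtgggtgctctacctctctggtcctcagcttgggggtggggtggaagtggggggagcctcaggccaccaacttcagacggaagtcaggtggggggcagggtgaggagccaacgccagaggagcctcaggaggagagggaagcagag
Socs3: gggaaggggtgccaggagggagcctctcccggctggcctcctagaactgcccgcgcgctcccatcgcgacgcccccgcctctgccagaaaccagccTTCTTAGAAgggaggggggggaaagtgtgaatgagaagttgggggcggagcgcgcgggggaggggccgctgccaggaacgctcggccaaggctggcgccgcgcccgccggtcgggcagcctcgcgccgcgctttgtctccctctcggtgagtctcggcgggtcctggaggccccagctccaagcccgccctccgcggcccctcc

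The Il6 window held 1 AP-1 match at -249 to -243, 1 C/EBP match at -128 to -121 and 1 NF-kB match at -43 to -35, counted from the annotated start. The Lif window held 1 AP-1 match at -228 to -222, and the Socs3 window 1 STAT match at -154 to -146. Of the 10 genes, 7 had such windows (Il6, Il6ra, Il6st, Lif, Osmr, Il11 and Stat3). The NF-kB and C/EBP letters were found in 1 of these 7 genes, Il6, the AP-1 letters in 4 (Il6, Lif, Osmr and Il11), and the STAT and CRE letters in 0. Of all 32851 windows, 1.25% held the NF-kB letters, 10.8% the C/EBP letters, 8.30% the STAT letters, 7.81% the AP-1 letters and 1.79% the CRE letters. The NF-kB, C/EBP and AP-1 letters stood together in 4 windows of all, Il6 included, a combination counted after the Il6 matches had been seen. A match of letters is a description of the sequence and does not show that a factor binds there.

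Values are log2 expression, on which 1 unit is a doubling, as the authors deposited them. Array medians lay between 5.53 and 5.61. A value of 5.60, the 95th percentile of the mean levels of 1105 olfactory receptor genes, which these cells are not known to express, served as a mark below which a probeset was called dim. By that mark Il11 and Osmr were dim on all 11 arrays, and Il10 on all but exposed array 1. Markers of conventional dendritic cells that could be measured (8 of 10 listed) averaged 10.54 to 10.70 on exposed and 10.58 to 10.67 on naive arrays, and 0 of them passed the test described below; Clec10a was dim. In an earlier look at these arrays, those numbered 1 to 3 stood apart from those numbered 4 to 6. No label gives a reason. Whether they stand apart within each group was not tested here. Differences are also given within each of these number sets.

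Il6 was higher in exposed cells, and the 2 groups of arrays did not overlap. It was measured at 7.36, 7.57, 7.26, 7.11 and 6.50 on exposed arrays 1, 2, 3, 4 and 6, and at 5.06 (lowest), 5.62 (median) and 6.02 (highest) on the 6 naive arrays (probeset 17435725). The lowest exposed array was number 6, and it still lay above the highest naive array, number 5. The group means were 7.16 ± 0.40 (SD, n = 5) in exposed and 5.54 ± 0.40 (SD, n = 6) in naive cells. They differed by 1.62 ± 0.20 (SE; 95% limits 1.18 to 2.06), which is 3.07-fold. The naive mean was itself below the mark for dim genes, so that this fold is set against a level near background. Among the 22180 genes this was the rise of rank 4. All 5 exposed arrays but only 3 of 6 naive arrays were above the mark for dim genes.

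Lif and Osm, whose genes are neighbours on chromosome 11, were higher on some exposed arrays only. Lif was measured at 6.94, 6.36, 7.34, 6.66 and 6.33 on exposed arrays 1, 2, 3, 4 and 6, and at 6.32, 6.37 and 6.45 (lowest, median, highest) on naive arrays. Naive arrays were thus close together, and 3 exposed arrays exceeded all of them. The difference was 0.35 ± 0.15 (SE; 95% limits 0.03 to 0.67, unadjusted and no test), which is 1.28-fold. Osm was measured at 7.24, 7.04, 8.05, 7.15 and 6.67 on exposed arrays 1, 2, 3, 4 and 6, and at 6.66, 6.90 and 7.03 (lowest, median, highest) on naive arrays. Exposed arrays 3 and 1 were the 2 highest for both genes and exposed array 6 the lowest, and for Osm 4 exposed arrays exceeded the whole naive group. The Osm difference was 0.38 ± 0.18 (SE; 95% limits -0.01 to 0.77), which is 1.30-fold. Exposed array 3 carried much of both differences: without it Lif differed by 0.20 and Osm by 0.17. Once group means were removed, Lif and Osm were correlated over the 11 arrays at r = 0.90, a description over arrays that share 2 number sets, and at r = 0.69 over the 10 arrays left without exposed array 3.

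Il11, a gp130 cytokine of bone and stroma, was dim in both groups. It lay between 4.75 and 5.13 on exposed and between 4.72 and 5.18 on naive arrays, so that all exposed values fell within the naive range, and the difference was -0.03 ± 0.09 (SE). At this signal no change in Il11 was detectable.

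Il10 varied more among exposed arrays than any other of the 10 genes. It was measured at 6.25, 5.60, 5.55, 4.91 and 4.52 on exposed arrays 1, 2, 3, 4 and 6, and at 4.24, 4.71 and 4.80 (lowest, median, highest) on naive arrays. Exposed arrays 1, 2, 3 and 4 exceeded the whole naive group, and exposed array 6 fell inside it. The group means were 5.37 ± 0.67 (SD, n = 5) in exposed and 4.61 ± 0.23 (SD, n = 6) in naive cells. They differed by 0.75 ± 0.24 (SE; 95% limits 0.24 to 1.27, unadjusted and no test). Both means were below the mark for dim genes, and no fold is given. Without exposed array 1 the difference was 0.53, and without exposed array 6 it was 0.97.

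**Figure D1:**
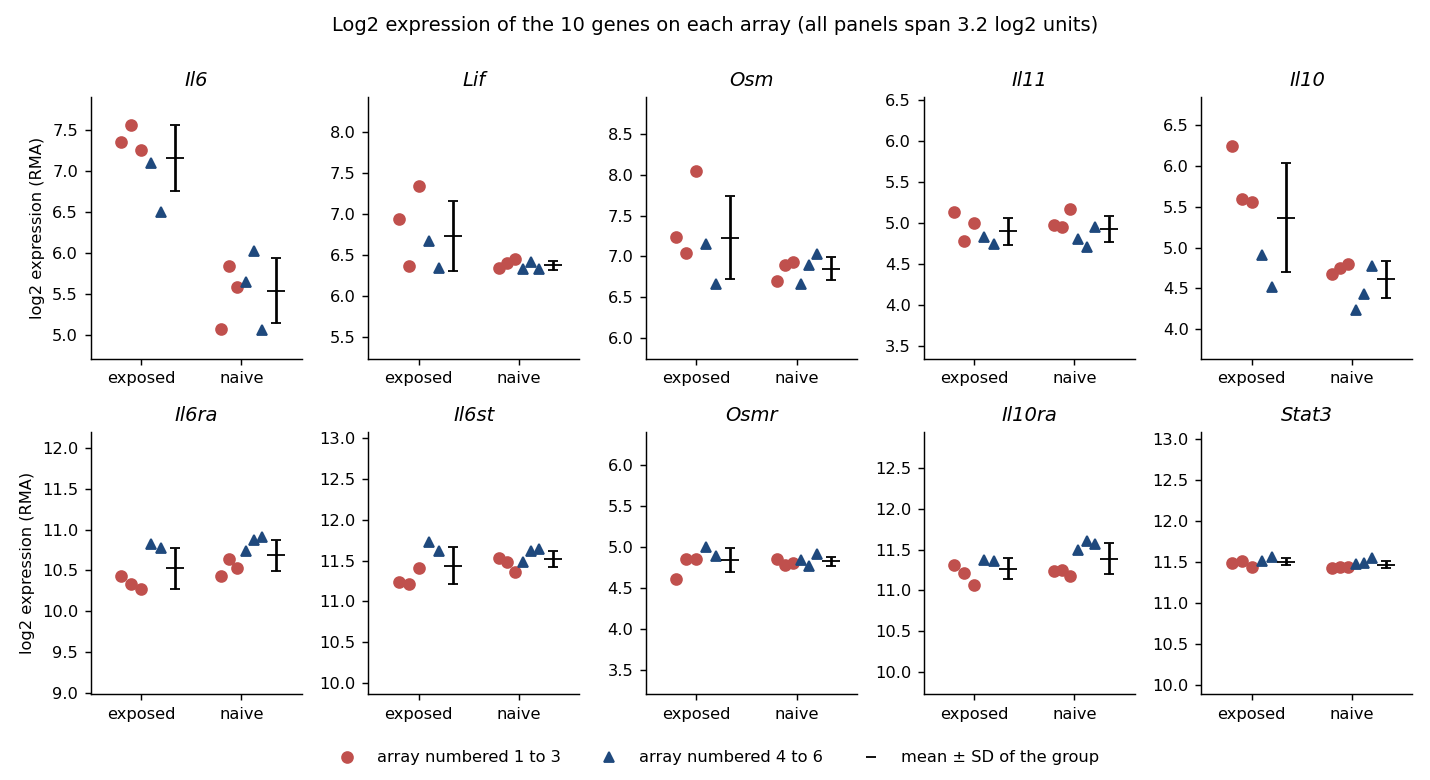
Log2 expression of the 10 genes on every array (vertical axis, log2 units, 3.2 units in each panel), exposed arrays left and naive arrays right; circles are arrays numbered 1 to 3, triangles arrays numbered 4 to 6, and the bar is the mean ± SD of the group. Il6 separates the groups, Il10, Lif and Osm are high on some exposed arrays, and the receptor chains and Stat3 overlap.

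The receptor chains overlapped between the groups. Il6ra, the chain that binds interleukin 6, was measured at 10.43, 10.33, 10.28, 10.82 and 10.77 on exposed arrays 1, 2, 3, 4 and 6, and at 10.43, 10.69 and 10.91 (lowest, median, highest) on naive arrays. Exposed arrays 1 to 3 lay below the lowest naive array, array 1 by less than 0.01, and the other two lay inside the naive range. The difference was -0.16 ± 0.11 (SE; 95% limits -0.40 to 0.08). Il6st, encoding gp130, was measured at 11.23, 11.21, 11.41, 11.73 and 11.61 on exposed arrays 1, 2, 3, 4 and 6, and at 11.36, 11.51 and 11.64 (lowest, median, highest) on naive arrays. Exposed arrays 1 and 2 lay below all naive arrays and exposed array 4 above them, and the difference was -0.08 ± 0.09 (SE; 95% limits -0.27 to 0.11).

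Osmr, the partner of gp130 for oncostatin M, was dim on every array, at 4.60 to 5.00 in exposed and 4.77 to 4.92 in naive cells, with a difference of 0.01 ± 0.07 (SE). Il10ra, the chain that binds interleukin 10, lay between 11.07 and 11.37 on exposed and between 11.18 and 11.60 on naive arrays, and the difference was -0.12 ± 0.09 (SE; 95% limits -0.31 to 0.06). The negative differences of Il6ra and Il10ra changed sign in 1 of 27 alternative fits each, and that of Il6st in 4. The fit shared by these genes had the mean of T and NK cell markers as a covariate and was chosen after seeing the data. It gave 0.17 for Il6ra, 0.20 for Il6st and 0.07 for Il10ra. That covariate nearly separated the groups, so this fit cannot decide the sign of their difference. Il6st was also positive in arrays 4 to 6 alone (0.09) and with the macrophage (0.01) or monocyte (0.02) marker mean as a covariate. Stat3 was the most even of the 10 genes, at 11.44 to 11.55 on exposed and 11.42 to 11.54 on naive arrays. Its difference was 0.03 ± 0.04 (SE; 95% limits -0.05 to 0.11).

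The list was drawn up with this comparison known, so nothing is read from the counts that follow. In the fit over all genes with limma, at a Benjamini-Hochberg adjusted p under 0.05, 1 of the 10 genes was called, Il6, and it was higher in exposed cells. Over all 22180 genes 1.42% were called, 0.879% as higher and 0.546% as lower. The exposed arrays lay wholly above the naive arrays for 1 of the 10 genes, again Il6, against 1.42% of all genes, and wholly below them for 0 of the 10 genes, against 0.875% of all genes; either applied to 2.29% of all genes. Differences were positive for 6 of the 10 genes, as for 53.5% of all genes. The median difference of the 10 genes was 0.02, against 0.01 over all genes, and the median absolute difference 0.14, against 0.07 over all genes. The count of called genes was 2 without exposed array 6, when Il10 joined Il6, and 0 in arrays 4 to 6 alone, where Il6 differed by 1.23 with 2 exposed and 3 naive arrays.

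Differences were larger in arrays 1 to 3 than in arrays 4 to 6 for the cytokines above the naive level. Within arrays 1 to 3 and within arrays 4 to 6 the differences were 1.89 and 1.23 for Il6, 1.06 and 0.23 for Il10, 0.60 and 0.04 for Osm, and 0.49 and 0.14 for Lif. For Il6st the differences were -0.17 and 0.09. A test of the difference itself, an interaction term between group and number set in limma, called 0 of the 10 genes and 0 of 22180 genes (0%), with 943 genes (4.25%) at an unadjusted p under 0.05. The lowest unadjusted interaction p among the 10 genes was 0.0125 for Il10 (adjusted p = 0.992), and that of Il6 was 0.101 (adjusted p = 0.992).

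**Figure D2:**
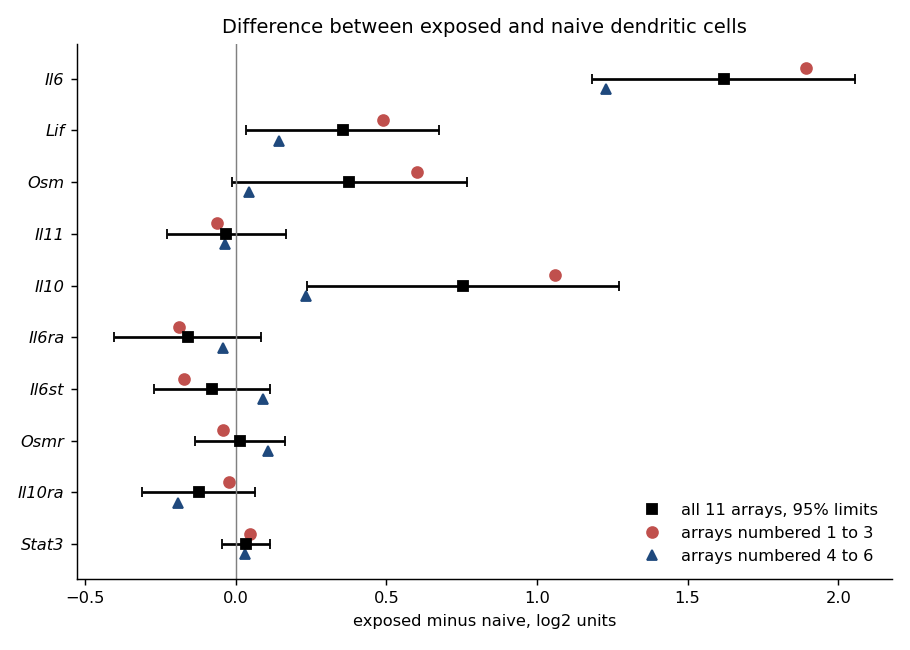
Difference between exposed and naive arrays in log2 units (horizontal axis) for the 10 genes; squares with bars are all 11 arrays with 95% limits, circles arrays numbered 1 to 3 and triangles arrays numbered 4 to 6. Il6 stands at 1.62 and Il10 at 0.75, and the differences of Il6, Il10, Osm and Lif are larger in arrays 1 to 3. The limits are unadjusted and serve as no test.

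The contrast between the number sets was not used to choose the genes, and it was fitted with the group as a term. The 5 arrays numbered 4 to 6 were 2 exposed and 3 naive, and the 6 arrays numbered 1 to 3 were 3 exposed and 3 naive. The split itself came from an earlier look at these same arrays, in which the number sets stood apart. Calls were thus favoured in advance, and the adjusted p-values of this contrast describe the split and are no independent test. The receptor chains Il6ra and Il10ra were higher in arrays 4 to 6. Il6ra averaged 10.80 in exposed and 10.84 in naive arrays 4 to 6, against 10.35 in exposed and 10.53 in naive arrays 1 to 3, a difference of 0.37 ± 0.05 (SE; limma adjusted p = 0.00552). Il10ra averaged 11.36 in exposed and 11.56 in naive arrays 4 to 6, against 11.20 in exposed and 11.22 in naive arrays 1 to 3, a difference of 0.26 ± 0.05 (SE; limma adjusted p = 0.0191). These 2 of the 10 genes passed, both higher in arrays 4 to 6, against 3.30% of all genes in either direction with 2.64% as higher and 0.658% as lower.

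Il6st differed in the same direction without passing (0.24 ± 0.06, adjusted p = 0.0573), and Il10 had the largest difference in the other direction (-0.62 ± 0.18, adjusted p = 0.0752). In this fit the differences of all 5 cytokines were negative, from -0.62 for Il10 to -0.19 for Lif. Those of the 4 receptor chains and Stat3 were positive, from 0.06 for Stat3 to 0.37 for Il6ra. Naive means of Il10, Il11 and Lif were lower in arrays 4 to 6, but those of Il6 and Osm were not. Osm averaged 6.86 in naive arrays 4 to 6 and 6.84 in naive arrays 1 to 3, against 6.91 and 7.44 in exposed arrays. For Il6 this difference was -0.22 ± 0.20 (adjusted p = 0.578), small beside the 1.62 between exposed and naive cells. The call of Il10ra was lost without naive array 6 (0.25, adjusted p = 0.0536), without exposed array 6 (0.28, adjusted p = 0.0521) and after a shift of all arrays to a common 75th percentile (0.20, adjusted p = 0.0561), and Il6st passed after median centring (0.29, adjusted p = 0.0176), among genes above the mark for dim genes only (0.24, adjusted p = 0.0365) and without naive array 4 (0.28, adjusted p = 0.0453).

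**Figure D3:**
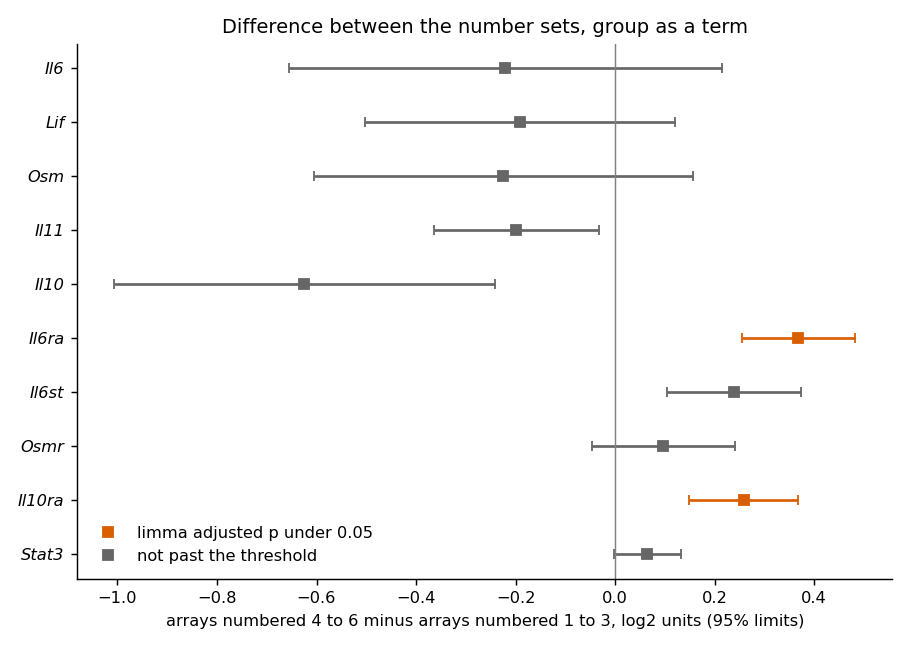
Difference between arrays numbered 4 to 6 and arrays numbered 1 to 3 in log2 units with 95% limits (horizontal axis), from the fit with the group as a term; orange genes passed at an adjusted p under 0.05. The 5 cytokines lie below 0, and the receptor chains and Stat3 above 0.

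Other genes of the pathway were examined in 8 lists, of which 100 different genes were measured. The lists were drawn up from general knowledge, but with earlier results of these arrays known. In exposed cells 4 of them rose (Clec4e, Socs3, Il1rn and Relb) and 2 fell (Stat4 and Clec7a). That is 6.00% of the lists' genes, against 1.42% of all genes, and 3 of the 6 (Clec4e, Socs3 and Il1rn) were already known from earlier results of these arrays. The share is therefore a description that supports nothing. Since all lists were drawn up with earlier results known, the adjusted p-values given below for any of their genes are descriptive too. The median difference of the 100 genes was 0.02, against 0.01 over all genes.

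No other ligand or receptor chain of the family passed. Of 7 measured ligands beyond those above (Clcf1, Ctf1, Ctf2, Il27, Ebi3, Il31 and Il12a) 0 were called, and the largest difference was that of Il27, a cytokine subunit that pairs with Ebi3, at 0.22 ± 0.09 (SE; limma adjusted p = 0.337). Of 6 receptor chains (Lifr, Cntfr, Il27ra, Il31ra, Il12rb1 and Il12rb2) 0 were called, with -0.32 ± 0.17 for Il31ra, a chain for interleukin 31 (adjusted p = 0.505). Of 10 other genes of the interleukin 10 family 0 were called, and only 2 of them were above the mark for dim genes. The largest difference there was 0.18 for the interferon lambda receptor Ifnlr1 (adjusted p = 0.483).

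Among the JAK kinases and other STATs, 1 of 8 was called. Stat4, which carries interleukin 12 and type I interferon signals, was measured at 9.33, 9.04, 9.33, 9.39 and 9.66 on exposed arrays 1, 2, 3, 4 and 6, and at 9.71, 9.99 and 10.37 (lowest, median, highest) on naive arrays. All exposed arrays lay below all naive arrays, and Stat4 fell by 0.64 ± 0.12 (SE; limma adjusted p = 0.0239), with -0.95 in arrays 1 to 3 and -0.27 in arrays 4 to 6. The kinases that serve gp130 differed little, with -0.03 for Jak1, 0.01 for Jak2 and -0.02 for Tyk2 (adjusted p = 0.848, 0.963 and 0.927); these 3 were named after their values had been seen.

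Of 11 genes that brake or shed these receptors, 1 was called. Socs3, whose protein binds gp130 and blocks the kinases, was measured at 7.99, 8.55, 8.07, 7.79 and 7.51 on exposed arrays 1, 2, 3, 4 and 6, and at 6.88, 7.21 and 7.27 (lowest, median, highest) on naive arrays. The groups did not overlap, and exposed array 6 was again the lowest of its group. Socs3 rose by 0.83 ± 0.14 (SE; limma adjusted p = 0.0160), or 1.78-fold, with 1.10 in arrays 1 to 3 and 0.46 in arrays 4 to 6.

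Of 24 STAT3 target genes 1 was called, 4.17% of the list against 1.42% of all genes. Il1rn, the interleukin 1 receptor antagonist, was 8.36 to 9.20 on exposed and 7.92 to 8.17 on naive arrays and rose by 0.61 ± 0.12 (SE; limma adjusted p = 0.0291), with 0.64 in arrays 1 to 3 and 0.54 in arrays 4 to 6. In the list 15 differences were positive and 9 negative, with a median of 0.03. Bcl3, a co-regulator of NF-kB induced by interleukin 10, differed by 0.39 ± 0.11 (adjusted p = 0.103) and the kinase gene Pim1 by -0.09 ± 0.10 (adjusted p = 0.817), both named after their values had been seen.

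Of 19 measured genes that control Il6 transcription or mRNA decay, 1 was called. Relb, a subunit of NF-kB, was 10.61 to 10.80 on exposed and 10.36 to 10.49 on naive arrays and rose by 0.25 ± 0.05 (SE; limma adjusted p = 0.0194), with 0.26 and 0.23 in arrays 1 to 3 and 4 to 6. The other 18 genes of the list did not pass, among them Cebpb with 0.37 ± 0.16 (limma adjusted p = 0.366). Nfkbiz, encoding the NF-kB cofactor needed for Il6 in mouse cells, differed by 0.29 ± 0.11 (limma adjusted p = 0.287). Zc3h12a, encoding the RNase that degrades Il6 mRNA, differed by 0.07 ± 0.09 (limma adjusted p = 0.844). Cebpb, Nfkbiz and Zc3h12a were named after their values had been seen.

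Of 15 measured receptors and adaptors that can induce Il6, 1 rose and 1 fell, both C-type lectins that signal through the adaptor CARD9. Clec4e, encoding Mincle, was measured at 7.25, 7.34, 8.32, 6.22 and 6.12 on exposed arrays 1, 2, 3, 4 and 6, and at 4.66, 5.05 and 5.62 (lowest, median, highest) on naive arrays, of which only 1 was above the mark for dim genes. It rose by 1.95 ± 0.32 (SE; limma adjusted p = 0.0138). Clec7a, encoding Dectin-1, was 10.85 to 11.47 on exposed and 11.47 to 11.85 on naive arrays, with 4 of 5 exposed arrays below all naive arrays. It fell by 0.53 ± 0.11 (SE; limma adjusted p = 0.0374), with -0.51 in arrays 1 to 3 and -0.62 in arrays 4 to 6.

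Single arrays decided several of these calls. Each of the 11 arrays was left out in turn. Socs3 and Clec4e passed every time. Relb missed the threshold in 2 of these fits, Stat4 in 5, Il1rn in 7 and Clec7a in 9. Relb, Stat4 and Clec7a reached their highest adjusted p without exposed array 2 (0.0577, 0.0688 and 0.111) and Il1rn without naive array 6 (0.0717).

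**Figure D4:**
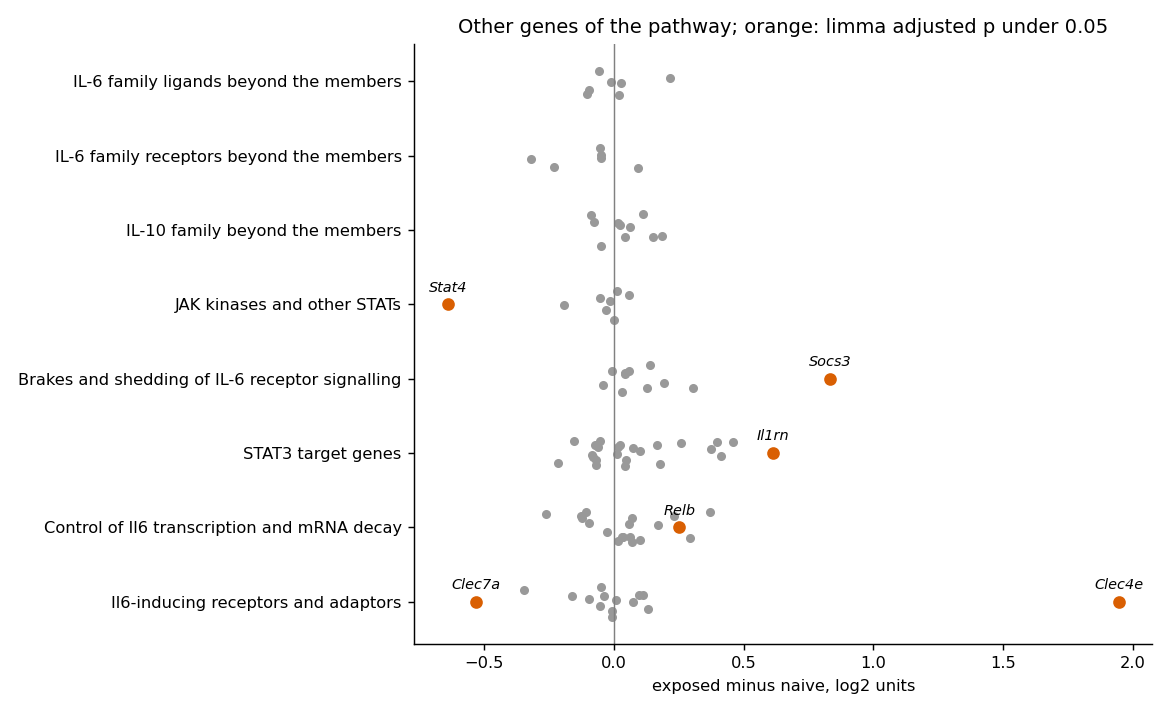
Difference between exposed and naive arrays in log2 units (horizontal axis) for the measured genes of the 8 lists (rows), 1 point a gene, shifted vertically for legibility; named orange points passed at an adjusted p under 0.05. Clec4e at 1.95 and Socs3 at 0.83 stand highest and Stat4 at -0.64 lowest.

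Genes whose values ran most like those of Il6 over the 11 arrays were Net1, Nupr1, Car13, Nr1h3 and P2ry13, with Pearson correlations of 0.962, 0.955, 0.954, 0.953 and 0.938. This likeness is a description: the arrays fall into 2 groups, and genes picked for running like Il6 had to differ between them, so their differences are given without a test. These differences between exposed and naive cells were 0.30 for Net1, 1.24 for Nupr1, 1.24 for Car13, 1.09 for Nr1h3 and 0.97 for P2ry13. Nr1h3 encodes an oxysterol receptor, P2ry13 a nucleotide receptor and Car13 a carbonic anhydrase. Once group means were removed, the likest genes over 11 arrays were Ccl7 (0.913), Slc22a13 (0.874), Calr3 (0.866), Ropn1 (0.865) and Cldn14 (0.862), whose differences between exposed and naive cells lay between -0.21 for Slc22a13 and 0.11 for Ccl7. Of these 5, all but Slc22a13 were dim by their mean over all arrays, so these correlations are between Il6 and signals near background. Exposed array 6 was the lowest exposed array for Il6 and for each of these 5 genes. Their correlations without that array were not computed. These genes were picked as the highest of all genes compared, over only 11 arrays, so high correlations were favoured in advance.

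Markers of other cell types moved with some of these values. In sorted bulk samples fewer cells of a type and less RNA per cell cannot be told apart. Of 12 red pulp macrophage markers 11 had positive differences and 0 passed. Their mean was 10.69, 9.62, 8.76, 8.67 and 8.58 on exposed arrays 1, 2, 3, 4 and 6, and 8.06 to 9.22 on naive arrays, and none of the 12 was dim. Exposed array 1 was the highest both for these markers and for Il10, while Lif and Osm were highest on exposed array 3. With the marker mean as a covariate the difference was 1.46 ± 0.21 (SE) for Il6, 0.44 ± 0.20 for Il10, 0.33 for Lif and 0.39 for Osm. Of the pathway genes that had passed, Stat4 missed the threshold in that fit (-0.58, limma adjusted p = 0.0636), and Socs3, Il1rn, Relb, Clec4e and Clec7a did not.

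**Figure D5:**
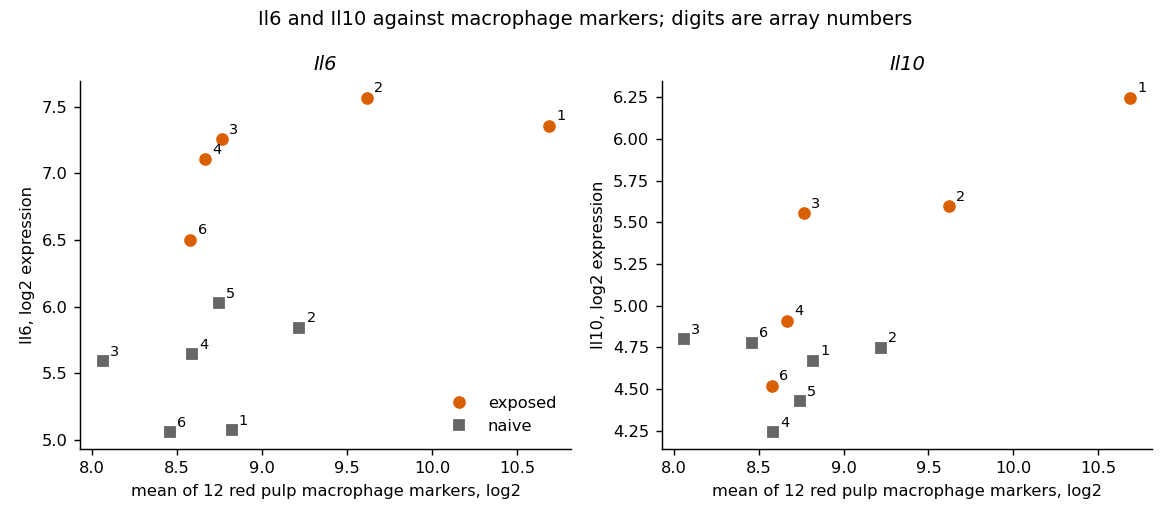
Log2 expression of Il6 (left) and Il10 (right) on the vertical axes against the mean of 12 red pulp macrophage markers in log2 units on the horizontal axes; each point is 1 array with its number, circles exposed and squares naive. All exposed arrays lie above all naive arrays for Il6, and Il10 is highest on exposed array 1, where the markers are highest.

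Monocyte markers (10 measured, 7 with positive differences, 1 called, Cx3cr1, as higher) averaged 7.76 to 8.21 on exposed and 7.67 to 8.08 on naive arrays, and B cell markers (9 measured, 5 positive, 1 called, Cd22, as lower) 7.28 to 7.57 on exposed and 7.33 to 7.50 on naive arrays. With the monocyte mean as a covariate Il6 differed by 1.53 ± 0.23 (SE) and Il10 by 0.44 ± 0.21, and Stat4, Il1rn and Relb missed the threshold (limma adjusted p = 0.0557, 0.0554 and 0.0566). With the B cell mean as a covariate Il6 differed by 1.63 ± 0.21 and Il10 by 0.84 ± 0.20. Neutrophil markers (10 measured, 0 called) averaged 5.21 to 5.46 on exposed and 5.17 to 5.27 on naive arrays, and plasmacytoid dendritic cell markers (6 measured, 0 called) 7.83 to 8.36 on exposed and 7.75 to 8.22 on naive arrays. T and NK cell markers were low, with 3 of 8 above the mark for dim genes, but nearly separated the groups, at 5.20 to 5.45 on exposed and 5.09 to 5.21 on naive arrays; 6 of the 8 were positive and 1 was called, the NK receptor gene Ncr1 (0.46, limma adjusted p = 0.0289). With their mean as a covariate, chosen after seeing the data, Il6 differed by 1.72 ± 0.38 (SE), but 0 of the 10 genes, 0 of the 100 pathway genes and 1 of 22180 genes passed. The part that any of these cells has in the differences was not tested beyond these fits.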

How the data were processed

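Each sample was biotin-labelled total RNA on 1 Affymetrix array of 1 colour. The deposited values are log2 expression per probeset and array, made with RMA per the submitters' processing notes; its version is not given in the sources used here. Of 41801 probesets, 7329 were blank on every array. A probe table named 1 gene for 23521 of the other 34472 probesets, several for 1814 and none for 9137. The probeset with the highest mean over all arrays stood for a gene, which left 22180 genes. For arrays, their number limits the precision.

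Differences (exposed minus naive) were computed with limma 3.58.1 in R 4.3.3, fitting group means by lmFit and moderating variances along the mean level by eBayes, with Benjamini-Hochberg adjustment over all genes and a threshold of 0.05. SE is limma's moderated standard error. The number-set contrast had the group as a term. The fits were tested on simulated data with independent noise and known changes. The simulated group contrast held no difference between number sets, whereas 3.30% of all genes were called between them in the data. The simulated setting was thus simpler than the data.

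The 10 genes and all lists were chosen with earlier results of these data known. Genes named were the 10; up to 6 called genes a list and direction, or the largest difference where none was called; and the 5 genes most correlated with Il6, before and after removing group means, leaving out predicted genes, olfactory receptors, genes of small RNAs and segments of antigen receptors. Exceptions are marked. Some listed genes had no probeset of 1 gene and were not analysed here, among them Cntf, Il11ra1, Jak3, Nfkb1, Irak4 and 5 markers.

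The last exposed array is numbered 6 in its title and 5 in another field. Alternatives were other limma settings, rescalings, a filter on dim genes, probeset means, blocks, number sets alone, marker covariates and each array left out.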

Additional observations from a re-analysis of the deposited data

Results flagged for a closer look

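Single arrays far from the rest of their group were looked for in 58 combinations of 29 named genes and 2 groups, by Dixon's gap ratio at the 95% level, which chance passes in about 1 group in 20. There were 2. P2ry13, one of the genes most like Il6, was at 8.02 on naive array 2, against 7.41 to 7.61 on the other naive arrays. Calr3, among the genes most like Il6 after group means were removed, was at 5.22 on exposed array 6, against 5.55 to 5.66 on the other exposed arrays. None of the 10 genes of interleukin 6 signalling was among them.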

How the results depend on the processing

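The 10 genes were chosen on the difference between exposed and naive cells, so their ranges describe the settings and support nothing. Differences lay between 1.23 and 1.89 for Il6, 0.14 and 0.59 for Lif, 0.04 and 0.70 for Osm and 0.23 and 1.06 for Il10. The other 6 genes changed sign in at least 1 alternative: Il6ra in 1 (-0.23 to 0.17), Il6st in 4 (-0.17 to 0.20), Il10ra in 1 (-0.19 to 0.07), Osmr in 5 (-0.04 to 0.14), Il11 in 2 (-0.09 to 0.02) and Stat3 in 1 (-0.0035 to 0.06). The count of called genes among the 10 was 1, and 0 in arrays 4 to 6 alone and with the T and NK covariate; it lay between 1 and 2 with single arrays left out. The count of 6 other pathway genes was 2 with the replicate block by the characteristic's number, 3 with the monocyte covariate, 0 in arrays 1 to 3 alone, in arrays 4 to 6 alone and with the T and NK covariate, and 3 to 8 with single arrays left out; it was 3 without naive array 2, 3, 5 or 6 or exposed array 2. Whether replicate numbers pair the arrays was not decided. With group means removed, arrays of one number correlated at 0.0880 to 0.231, over 0.1 in 4 of 5 pairs, and 2 correlated best with their own number. With the replicate block by the title's number Il6 differed by 1.72 ± 0.12 (SE) and with the characteristic's by 1.52 ± 0.21. Between number sets the count of 2 was 1 after the 75th percentile shift, 3 with median centring and with the filter on dim genes, and 1 to 3 with single arrays left out. Of all genes 316 passed (195 higher, 121 lower). The count was 182 with the replicate block by the characteristic's number, 617 with the number set as a block, 11 in arrays 1 to 3 alone, 5 in arrays 4 to 6 alone, 1 with the T and NK covariate and 104 to 395 with single arrays left out, lowest without exposed array 2; the 75th percentile shift gave 168 higher and 223 lower, and quantile normalisation 195 higher and 167 lower. The cause of these changes was not tested. Among the genes most like Il6, near-zero differences changed sign. Ropn1 (0.01) was -0.00781 with median centring, -0.0286 with the 75th percentile shift, -0.00164 with the replicate block by the characteristic's number, -0.0648 in arrays 4 to 6 alone, -0.00388 with the macrophage covariate and -0.0108 to 0.0431 with single arrays left out. Calr3 (-0.06) was 0.0599 in arrays 1 to 3 alone, 0.0585 with the T and NK covariate and -0.0981 to 0.0125 with single arrays left out, and Cldn14 (0.06) was -0.0629 in arrays 4 to 6 alone. Signal over background limits Il11, Osmr, Il10 and the naive level of Il6.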
